A study of Mus musculus with 13 samples.

Results

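Border-associated macrophages are the macrophages of the brain's edges and are told from microglia by a small set of genes. The genes described here are 8 such markers, Mrc1, Cd163, Lyve1, Cbr2, Pf4, F13a1, Ms4a7 and Stab1, selected by symbol from the table of gene counts. All 8 were present among its 55416 genes, and all 8 were among the 22507 genes with enough counts to be tested.

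The RNA came from whole brain tissue of mice, so every value is an average over all cells of the sample. Pdcd10, also named Ccm3, is a gene whose loss from endothelial cells causes cavernous malformations, clusters of dilated and leaking brain vessels, in mice and humans. All 13 libraries came from mice carrying the loxP-flanked allele, Pdcd10 fl/fl. Knockouts (KO, labelled Pdcd10BECKO) also carried Slco1c1-iCreERT2, a Cre recombinase driven by a promoter active in brain endothelium, and were given 50 µg of 4-hydroxytamoxifen into the stomach on postnatal day 1. The flox controls were Pdcd10 fl/fl littermates without Cre, and whether they were injected too is not clear from the design text, nor is the age at harvest given. The groups were: KO in hypoxia (12% oxygen for 7 days, n = 4), flox in hypoxia (n = 3), KO in normoxia (21% oxygen, n = 3) and flox in normoxia (n = 3).

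Libraries held 42090437 to 71216636 counts, at which 3 counts come to 0.0421 to 0.0713 CPM, the unit of counts scaled to the library's total. Pdcd10 averaged 16.4 ± 1.09 CPM in KO hypoxia libraries against 17.4 ± 0.194 in flox hypoxia libraries (SD). In normoxia it averaged 16.9 ± 1.07 CPM in KO libraries against 17.1 ± 0.799 in flox libraries. In hypoxia every KO library lay below every flox library, at most 17 against at least 17.2 CPM, and in normoxia they overlapped. Neither difference passed the test used below (edgeR, adjusted p = 0.47 in hypoxia and 0.962 in normoxia). A deletion limited to endothelium was thus not clearly visible in whole tissue, and the genotype labels were not checked by it. All animals are labelled male, yet 4 libraries had more Xist, the X-inactivation RNA of females, than Y-linked transcripts: 2 of KO hypoxia, 1 of KO normoxia and 1 of flox normoxia. Replicate 1 of KO hypoxia stood apart in its blood content, with 1.72% of its counts in hemoglobin genes against 0.345% to 0.419% in the other 3 KO hypoxia libraries. Hemoglobin genes held 0.0439% to 0.0659% of counts in flox hypoxia, 0.0949% to 0.168% in KO normoxia and 0.0136% to 0.0255% in flox normoxia. For the 8 genes as a set, the median without replicate 1 of KO hypoxia is given for each comparison that uses it. Values of single genes without it are given for some only.

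Macrophages of the brain's borders live in the meninges, along penetrating vessels in the perivascular space, and in the choroid plexus, and they sample fluid and take up debris there. Microglia, the macrophages of the tissue proper, far outnumber them and carry little of most of these transcripts. Some of the genes are also used elsewhere: Pf4 and F13a1 by platelets and their precursors, Lyve1 by lymphatic endothelium, and Stab1 by some endothelium and by microglia.

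All 8 genes were low in whole brain. On the RPKM scale, which divides by gene length and so lets genes be compared, the highest in KO hypoxia was Stab1 with 2.82 ± 0.485 RPKM, against 1.75 ± 0.108 RPKM in flox hypoxia (SD, n = 4 and 3). Mrc1 had 1.28 ± 0.338 RPKM in KO hypoxia against 0.550 ± 0.0781 in flox hypoxia. The lowest was Ms4a7, at 0.162 ± 0.0976 RPKM in KO hypoxia against 0.0393 ± 0.00707 in flox hypoxia. In normoxia Stab1 was again the highest, at 2.06 ± 0.160 RPKM in KO against 1.64 ± 0.155 in flox libraries, and Ms4a7 again the lowest, at 0.0905 ± 0.0430 in KO against 0.0674 ± 0.0308 in flox libraries.

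The group means fell in the same order for 7 of the 8 genes: KO hypoxia highest, then KO normoxia, then flox normoxia, with flox hypoxia lowest. Stab1 kept the first 2 places and had its lowest mean in flox normoxia. The ratio of the highest to the lowest group mean ran from 1.69 for Stab1 to 4.05 for Ms4a7. For 7 of the 8 genes the libraries of KO hypoxia overlapped those of KO normoxia, next in the order, the exception being Stab1. KO normoxia and flox normoxia overlapped for Cd163, Lyve1, Cbr2, Pf4 and Ms4a7. For Lyve1, Cbr2, Pf4 and Ms4a7 each pair of neighbours in the order overlapped.

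**Figure D1:**
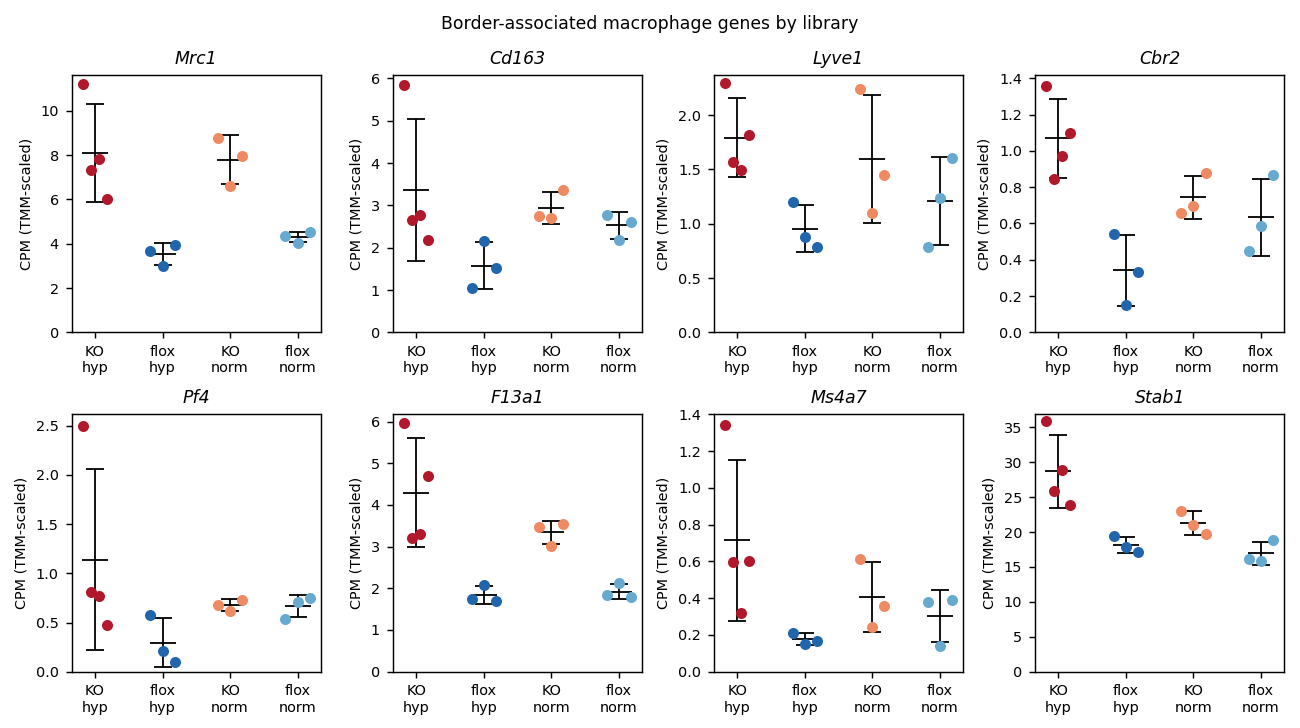
CPM of each of the 8 genes (y axis, linear from 0, scaled by TMM) in each library, by group from left to right (KO hypoxia, flox hypoxia, KO normoxia, flox normoxia). Points are libraries, and the long and short bars are the mean and 1 SD. Replicate 1 of KO hypoxia is the highest point for all 8 genes, for Pf4 at 2.50 CPM against at most 0.811 CPM in the other 3.

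The promoters of the genes are shown for 4 members, chosen to set a window with 3 copies of a macrophage motif beside others with 1 copy or none. PU.1, the ETS-family factor that macrophages depend on, binds around a purine-rich core, the PU box, searched here as GAGGAA on both strands. The sequences are from RefSeq for the GRCm38.p6 build, from 250 bases before to 50 bases after the annotated start, 5′ to 3′ on the gene's strand, with each GAGGAA or its reverse complement TTCCTC in capitals.
Mrc1 (chr2:14229164-14229463, plus strand): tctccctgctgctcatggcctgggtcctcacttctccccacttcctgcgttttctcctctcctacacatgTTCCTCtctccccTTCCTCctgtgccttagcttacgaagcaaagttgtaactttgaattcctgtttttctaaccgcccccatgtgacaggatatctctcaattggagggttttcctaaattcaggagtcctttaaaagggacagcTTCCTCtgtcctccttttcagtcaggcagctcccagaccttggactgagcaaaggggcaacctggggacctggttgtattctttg
Stab1 (chr14:31168592-31168891, minus strand): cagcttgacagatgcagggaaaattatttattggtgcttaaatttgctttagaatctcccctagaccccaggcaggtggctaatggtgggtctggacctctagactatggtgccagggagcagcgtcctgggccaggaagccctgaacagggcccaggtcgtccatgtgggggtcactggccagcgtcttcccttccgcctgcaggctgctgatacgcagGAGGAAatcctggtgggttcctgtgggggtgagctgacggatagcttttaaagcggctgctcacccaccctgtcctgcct
Pf4 (chr5:90772185-90772484, plus strand): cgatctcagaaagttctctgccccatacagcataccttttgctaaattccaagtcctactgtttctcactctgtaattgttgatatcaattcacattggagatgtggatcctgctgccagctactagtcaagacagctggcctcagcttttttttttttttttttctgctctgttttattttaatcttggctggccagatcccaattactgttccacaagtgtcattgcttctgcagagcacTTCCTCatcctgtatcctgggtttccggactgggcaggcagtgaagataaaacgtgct
Cd163 (chr6:124304401-124304700, plus strand): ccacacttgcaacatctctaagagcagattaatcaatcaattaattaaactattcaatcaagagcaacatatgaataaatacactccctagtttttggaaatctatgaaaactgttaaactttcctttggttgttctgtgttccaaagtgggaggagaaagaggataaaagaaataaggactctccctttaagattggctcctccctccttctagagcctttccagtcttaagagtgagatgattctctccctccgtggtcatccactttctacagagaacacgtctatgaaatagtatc
The Mrc1 window held 3 PU boxes, the Stab1 and Pf4 windows 1 each and the Cd163 window none. Promoters were found for 7 of the 8 genes, with 9 start sites between them. A PU box lay in at least 1 window of 6 of these 7 genes (Mrc1, Cbr2, Pf4, F13a1, Ms4a7 and Stab1), and in 7 of the 9 windows, against 28.3% of all 32851 promoter windows. A second ETS core, GGAAGT, whose letters can overlap a PU box, lay in 4 of the 9 windows against 23.8% of all windows, and the MAF site TGCTGA in 2 of 9 against 19.5%. The KLF box GGGTGG lay in 3 of 9 windows against 31.5% of all, while the E-box CACGTG and the AP-1 site TGACTCA were found in 0 of 9, against 7.15% and 5.2% of all windows. A match is a description of letters and shows no binding.

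KO and flox brains under hypoxia were compared first. In KO brains 7 of the 8 genes rose, by log2 fold changes of 0.66 to 2.0 (edgeR quasi-likelihood test, Benjamini-Hochberg adjusted p under 0.05 over all 22507 genes), and none fell. Across all genes tested 6.78% rose in this comparison. Lyve1 was higher by 0.90 but did not pass. Each KO library lay above each flox library for 7 of the 8 genes, Pf4 being the exception, against 11.5% of all genes tested. The median log2 fold change was 1.21 over the 8 genes and -0.0092 over all genes. In bulk tissue, more cells of a type and more RNA per cell cannot be told apart.

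The scavenger receptors come first. Mrc1, the mannose receptor CD206 that takes up glycoproteins, had 11.2, 7.33, 7.82 and 6.0 CPM in the KO hypoxia libraries (660, 407, 539 and 268 raw counts), against 3.68, 2.98 and 3.94 CPM in the flox hypoxia libraries (191, 139 and 165 raw counts). The lowest KO library stood well clear of the highest flox library. Mrc1 rose by 1.20 ± 0.18 on the log2 scale (SE, adjusted p = 0.000511), a fold of 2.3.

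Stab1, a large scavenger receptor for modified lipoproteins and matrix fragments, had 35.9, 25.9, 28.9 and 23.9 CPM in KO hypoxia libraries, against 19.5, 17.8 and 17.2 CPM in flox hypoxia libraries. The groups did not overlap. Its log2 fold change of 0.66 ± 0.115 was the smallest of the 8 and passed with an adjusted p of 0.00163.

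Cd163, the receptor that clears hemoglobin bound to haptoglobin, had 5.85, 2.67, 2.77 and 2.17 CPM in KO hypoxia libraries, against 1.04, 2.16 and 1.53 CPM in flox hypoxia libraries. Replicate 1 of KO hypoxia carried more than any other library, and the lowest KO value was barely above the highest flox value. In raw counts these were 344, 148, 191 and 97 in KO hypoxia libraries, against 54, 101 and 64 in flox hypoxia libraries. The log2 fold change was 1.10 ± 0.307 (adjusted p = 0.0342), and without that library it was 0.70 and did not pass (adjusted p = 0.0718).

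Lyve1, a hyaluronan receptor of perivascular macrophages and lymphatic vessels, had 2.30, 1.57, 1.49 and 1.81 CPM in KO hypoxia libraries, against 1.20, 0.878 and 0.788 CPM in flox hypoxia libraries. All 4 KO libraries were above all 3 flox libraries, on 81 to 135 raw counts in KO hypoxia and 33 to 62 in flox hypoxia. The log2 fold change of 0.90 ± 0.284 nonetheless missed the threshold (adjusted p = 0.0611), and it passed with DESeq2 (adjusted p = 0.0235). Without replicate 1 of KO hypoxia the log2 fold change was 0.75, with an adjusted p of 0.154 in edgeR.

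Of the secreted proteins and enzymes, F13a1, the A subunit of the fibrin-crosslinking coagulation factor XIII, had 5.97, 3.21, 3.29 and 4.70 CPM in KO hypoxia libraries, against 1.74, 2.08 and 1.70 CPM in flox hypoxia libraries. The groups were clearly separate, on 178 to 351 raw counts in KO hypoxia and 71 to 97 in flox hypoxia. F13a1 rose by 1.22 ± 0.202 on the log2 scale (adjusted p = 0.00107).

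Cbr2, a carbonyl reductase, had 1.36, 0.847, 0.972 and 1.10 CPM in KO hypoxia libraries (80, 47, 67 and 49 raw counts), against 0.540, 0.150 and 0.334 CPM in flox hypoxia libraries (28, 7 and 14 raw counts). The groups did not overlap, and the lowest flox library rests on few reads. Cbr2 rose by 1.62 ± 0.349 on the log2 scale (adjusted p = 0.00752), a fold of 3.08.

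Pf4, the chemokine CXCL4 that platelets store in their granules, had 2.50, 0.811, 0.769 and 0.470 CPM in KO hypoxia libraries (147, 45, 53 and 21 raw counts), against 0.579, 0.214 and 0.0955 CPM in flox hypoxia libraries (30, 10 and 4 raw counts). The lowest KO library was below the highest flox library, and replicate 1 of KO hypoxia held more than the other 3 together in that group. Pf4 passed narrowly, with a log2 fold change of 1.90 ± 0.555 (adjusted p = 0.0433), and without that library the value was 1.17 with an adjusted p of 0.13.

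Ms4a7, a membrane-spanning protein used to tell border-associated macrophages from microglia, had 1.34, 0.594, 0.319 and 0.605 CPM in KO hypoxia libraries (79, 33, 22 and 27 raw counts), against 0.212, 0.150 and 0.167 CPM in flox hypoxia libraries (11, 7 and 7 raw counts). The groups did not overlap, though the flox values rest on few reads. Its log2 fold change, 2.0 ± 0.531, was the largest of the 8 (adjusted p = 0.027), and without replicate 1 of KO hypoxia it was 1.48 with an adjusted p of 0.0852.

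Without replicate 1 of KO hypoxia, 4 of the 8 genes passed in hypoxia, with a median log2 fold change of 1.01, and 4 passed without replicate 3 of flox hypoxia. Over all genes, 2039 were called in this comparison with all 13 libraries, and 1151 to 2490 when 1 library was left out. Mrc1, Stab1, F13a1 and Cbr2 passed in each of the 13 fits that left out 1 library, with adjusted p-values of at most 0.00627, 0.0138, 0.00968 and 0.042 in that order. Cd163 lost its call in 3 of these fits, Ms4a7 in 4 and Pf4 in 8.

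**Figure D2:**
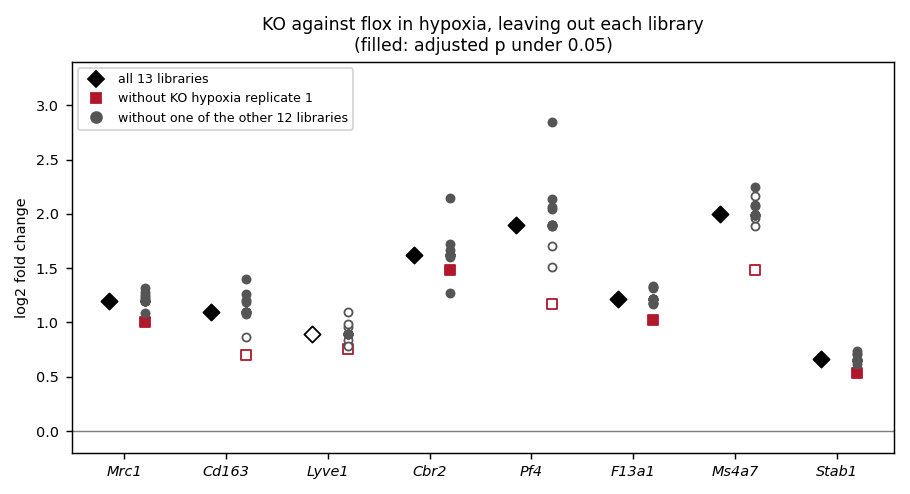
Log2 fold change of each gene for KO against flox in hypoxia (y axis) with all 13 libraries (diamonds), without replicate 1 of KO hypoxia (red squares) and without each of the other 12 libraries (grey circles); filled symbols have an adjusted p under 0.05. The squares of Cd163, Lyve1, Pf4 and Ms4a7 are open, at 0.70, 0.75, 1.17 and 1.48, while every symbol of Mrc1, F13a1, Cbr2 and Stab1 is filled.

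In normoxia 1 of the 8 genes, Mrc1, rose in KO against flox brains and none fell. In this comparison 2.33% of all genes passed in either direction and 1.96% rose. All 8 log2 fold changes were above 0, between 0.01 and 0.85, with a median of 0.35 against -0.0036 over all genes. Mrc1, F13a1 and Stab1 had every KO library above every flox library, 3 of 8 genes against 10.5% of all genes tested.

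Mrc1 had 8.78, 6.61 and 7.97 CPM in KO normoxia libraries (415, 464 and 381 raw counts), against 4.34, 4.05 and 4.53 CPM in flox normoxia libraries (242, 229 and 303 raw counts). The flox libraries lay close together and far below the KO libraries. The rise was 0.85 ± 0.184 on the log2 scale (SE, adjusted p = 0.0219, edgeR), a fold of 1.8. It passed when either KO hypoxia or flox hypoxia libraries were left out one at a time, but not in 5 of the 6 fits that left out a normoxia library, where the adjusted p reached 0.106.

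F13a1 had 3.47, 3.02 and 3.54 CPM in KO normoxia libraries, against 1.85, 2.12 and 1.78 CPM in flox normoxia libraries. The groups were as separate as for Mrc1. The log2 fold change was 0.80 ± 0.209, just short of the threshold (adjusted p = 0.0617), and it passed when replicate 1 or replicate 2 of KO hypoxia, libraries outside this comparison, was left out (adjusted p = 0.0112 and 0.0368).

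Stab1 had 23.0, 21.0 and 19.8 CPM in KO normoxia libraries, against 16.1, 15.8 and 18.9 CPM in flox normoxia libraries. The groups did not overlap but came close, and the log2 fold change of 0.33 ± 0.122 did not pass (adjusted p = 0.228).

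For the other 5 genes the normoxia groups overlapped. Lyve1 had 2.24, 1.10 and 1.44 CPM in KO normoxia libraries, against 0.790, 1.24 and 1.60 CPM in flox normoxia libraries. Cd163 had 2.75, 2.69 and 3.37 CPM in KO normoxia libraries, against 2.78, 2.18 and 2.62 CPM in flox normoxia libraries. Their log2 fold changes were 0.37 ± 0.29 and 0.21 ± 0.308. Pf4 had 0.677, 0.613 and 0.732 CPM in KO normoxia libraries, against 0.538, 0.708 and 0.748 CPM in flox normoxia libraries. Its means were almost the same, 0.674 ± 0.0599 CPM in KO normoxia and 0.665 ± 0.111 CPM in flox normoxia (SD, n = 3 each), and the KO hypoxia libraries other than replicate 1 lay near this level. Cbr2 had 0.656, 0.698 and 0.879 CPM in KO normoxia libraries, against 0.449, 0.584 and 0.868 CPM in flox normoxia libraries. Ms4a7 had 0.614, 0.242 and 0.356 CPM in KO normoxia libraries, against 0.377, 0.142 and 0.389 CPM in flox normoxia libraries. For both genes the values of the 2 genotypes interleaved, and the log2 fold changes were 0.22 ± 0.34 for Cbr2 and 0.38 ± 0.526 for Ms4a7. None of these 5 passed, with adjusted p-values of 0.641 to 0.996, and for Pf4, with an SE of 0.539 on the log2 scale, a change of considerable size was not detectable at this depth.

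**Figure D3:**
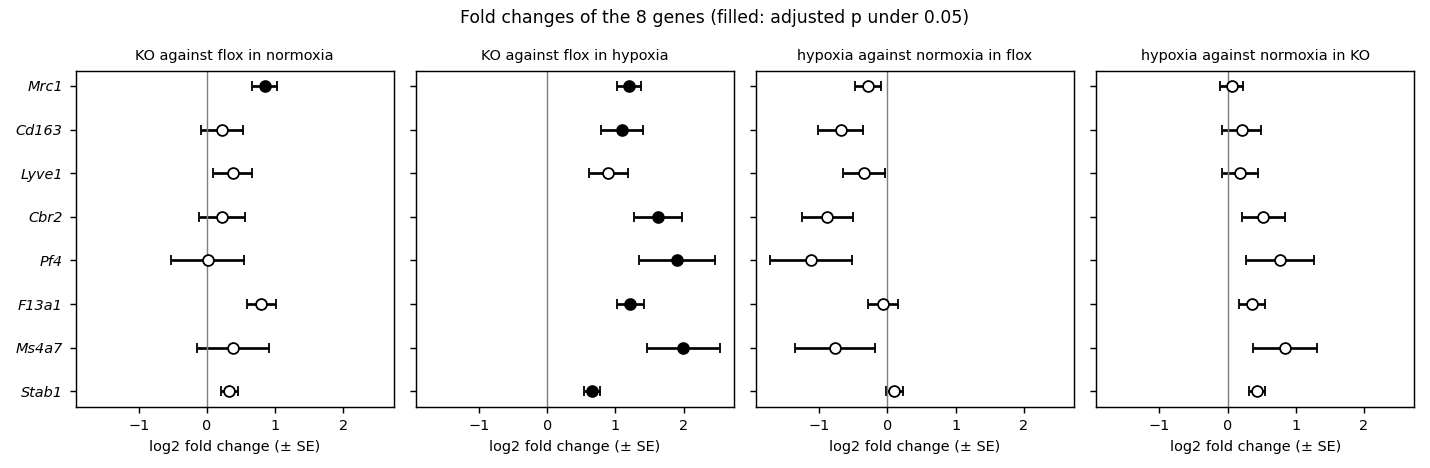
Log2 fold change of each of the 8 genes (x axis, with 1 SE as bars) in 4 comparisons, one panel each; filled circles have an adjusted p under 0.05. In hypoxia 7 of 8 circles are filled, in normoxia only that of Mrc1, and none in either comparison of hypoxia with normoxia.

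Hypoxia itself changed none of the 8 genes past the threshold in either genotype. These comparisons use the same libraries as those of genotype, so that a low flox hypoxia group enters both, and their values are given only side by side. In flox brains 0 of 8 passed in edgeR, 0 passed in DESeq2 and in limma-trend, and 1 gene, Cbr2, had an unadjusted p under 0.05, where 0.0222% of all genes were called. Of the 8 log2 fold changes 7 were below 0, with a median of -0.51 against -0.0018 over all genes. Cd163 had 1.04, 2.16 and 1.53 CPM in flox hypoxia, all below the 2.78, 2.18 and 2.62 CPM of flox normoxia, a log2 fold change of -0.68 ± 0.326 (adjusted p = 0.759). Mrc1 was the other gene with all flox hypoxia libraries below all flox normoxia libraries, 2 of 8 genes against 5.98% of all, with a log2 fold change of -0.29 ± 0.193. The lowest fitted values were those of Pf4, -1.12 ± 0.597, and Cbr2, -0.88 ± 0.376.

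In KO brains 0 of 8 genes passed in edgeR for hypoxia against normoxia, where 0.897% of all genes were called. Stab1 had an unadjusted p under 0.05 and passed in DESeq2. All 8 values were above 0, with a median log2 fold change of 0.40 against 0.0092 over all genes. Stab1 was the only one of the 8 whose 4 KO hypoxia libraries, at 23.9 to 35.9 CPM, all lay above the 3 KO normoxia libraries, at 19.8 to 23.0 CPM, and its log2 fold change was 0.43 ± 0.113 (adjusted p = 0.0827). Every library was above in 6.59% of all genes. Mrc1 was level, at 8.09 ± 2.22 CPM in KO hypoxia and 7.79 ± 1.10 CPM in KO normoxia (SD, n = 4 and 3). Without replicate 1 of KO hypoxia the median over the 8 was 0.10. Mrc1 was then at -0.13 and Cd163 at -0.20, Pf4 and Lyve1 were at 0.04 each, F13a1 was at 0.16, Stab1 at 0.31, Ms4a7 at 0.33 and Cbr2 at 0.38.

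The difference between the genotype effects in hypoxia and in normoxia was tested as an interaction. It was above 0 for all 8 genes, by 0.33 to 1.89 on the log2 scale with a median of 0.71, but none passed (adjusted p 0.625 to 0.806, edgeR), and DESeq2 and limma-trend called none of the 8. Cbr2 at 1.40 ± 0.488, Pf4 at 1.89 ± 0.774 and Ms4a7 at 1.62 ± 0.751 had unadjusted p-values of 0.0112, 0.0273 and 0.0474. Without replicate 1 of KO hypoxia the median was 0.43, with Cbr2 at 1.27, Pf4 at 1.16, Ms4a7 at 1.11, Cd163 at 0.48, Lyve1 at 0.38, F13a1 at 0.22, Stab1 at 0.205 and Mrc1 at 0.15. Of all genes 0% passed, with 1635 at an unadjusted p under 0.05, 5 called by DESeq2 and 2 by limma-trend. The 7 genes that passed in hypoxia against 1 in normoxia are thus not shown to respond differently at the 2 oxygen levels.

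Averaged over both oxygen levels, KO brains had more of 4 of the 8 genes: Mrc1 (1.02 ± 0.128, adjusted p = 6.58e-05), F13a1 (1.01 ± 0.145, adjusted p = 0.000223), Stab1 (0.49 ± 0.0836, adjusted p = 0.00092) and Cbr2 (0.92 ± 0.244, adjusted p = 0.022), all on the log2 scale. In the same comparison 7.78% of all genes rose. Ms4a7 at 1.19 ± 0.375 (adjusted p = 0.0525) and Lyve1 at 0.64 ± 0.203 (adjusted p = 0.0542) fell just short, as did Cd163 at 0.66 ± 0.217 (adjusted p = 0.0633), while Pf4 at 0.95 ± 0.387 had an adjusted p of 0.134. With that first KO hypoxia library left out, 4 genes again passed, with a median over the 8 of 0.72 in place of 0.94, and Pf4 was at 0.59 and Cd163 at 0.455.

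Of 18 other genes known from border-associated macrophages, 16 could be tested, and in hypoxia 5 rose and none fell, with a median log2 fold change of 1.01. When replicate 1 of KO hypoxia was left out, 4 rose, with a median of 0.78. Siglec1, the sialic acid receptor CD169, averaged 1.80 ± 0.707 CPM in KO hypoxia against 0.381 ± 0.0564 in flox hypoxia, a log2 fold change of 2.23 ± 0.357 (adjusted p = 0.000848). Lilra5 (2.02), Ms4a6c (1.49), the scavenger receptor Colec12 (0.71) and the endocytic adaptor Dab2 (0.58) were the others. Clec10a and Mgl2, lectins of perivascular macrophages, were higher in every KO library without passing (0.93 and 1.15, adjusted p = 0.0523 and 0.0565). Folr2, a folate receptor often used for the same cells, was near the limit of detection and level, at 0.186 CPM in KO hypoxia against 0.193 CPM in flox hypoxia. The transcription factor Maf (28.1 CPM in KO hypoxia against 26.9 in flox hypoxia) and properdin, Cfp (10.5 against 11.5 CPM), did not pass. In normoxia 2 of the 16 rose, Siglec1 by 2.12 ± 0.375 (adjusted p = 0.00589) and Ms4a6c by 1.84 ± 0.367 (adjusted p = 0.0133).

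Genes of antigen presentation by MHC class II, carried by one kind of border-associated macrophage and by dendritic cells, gave larger changes. In hypoxia 5 of 7 rose and none fell: H2-Ab1 by 2.47 ± 0.331, Cd74 by 2.23 ± 0.266, H2-Aa by 2.13 ± 0.311 and Cd52 by 1.90 ± 0.321 on the log2 scale, with H2-Eb1 as the fifth. Cd74, the invariant chain, averaged 15 ± 6.14 CPM in KO hypoxia against 3.20 ± 0.170 CPM in flox hypoxia. In normoxia 4 of 7 rose, H2-Aa by 1.72, H2-Eb1 by 1.65, Cd74 by 1.61 and H2-Ab1 by 1.38 (adjusted p 0.00414 to 0.0364). Their transcriptional switch Ciita did not pass in either, with log2 fold changes of 0.16 in hypoxia and -0.51 in normoxia.

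Genes that microglia and border-associated macrophages share moved as well. Of 13 such genes 12 rose in hypoxia and none in normoxia, with median log2 fold changes of 0.77 in hypoxia and 0.41 in normoxia. Ptprc, the pan-leukocyte phosphatase CD45, rose by 1.25 ± 0.215, Fcer1g by 0.98 ± 0.184, C1qa by 0.90 ± 0.135 and Ctss by 0.84 ± 0.145 in hypoxia, while the myeloid factor Spi1, which encodes PU.1, was at 0.69 ± 0.215 (adjusted p = 0.0583). Of 12 genes of homeostatic microglia 9 rose in hypoxia and none in normoxia, by less: Olfml3 by 0.66, Trem2 by 0.53, Csf1r by 0.48 and Gpr34 by 0.43. The microglial purine receptor P2ry12 (0.15 ± 0.0554) and the microglial factor Sall1 (0.12 ± 0.0631) did not pass. Without replicate 1 of KO hypoxia the shared genes gave 10 calls in hypoxia and 8 in normoxia, and the microglial genes 7 and 2.

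Relative to these lists, the 8 genes stood as follows. The mean log2 CPM of the 8 minus that of the 13 shared macrophage genes was -2.58 ± 0.204 in KO hypoxia against -3.07 ± 0.190 in flox hypoxia, and -2.51 ± 0.142 in KO normoxia against -2.53 ± 0.0947 in flox normoxia (SD, n = 4, 3, 3 and 3). In normoxia the 8 thus kept their distance to the shared genes within the spread, and in hypoxia the flox libraries were lowest. Minus the microglial genes, the difference was -3.13 ± 0.401 in KO hypoxia against -4.0 ± 0.232 in flox hypoxia, and -3.26 ± 0.214 in KO normoxia against -3.47 ± 0.197 in flox normoxia. Minus the 10 blood endothelial genes, it was -3.60 ± 0.246 in KO hypoxia against -3.90 ± 0.204 in flox hypoxia, and -3.45 ± 0.233 in KO normoxia against -2.93 ± 0.156 in flox normoxia. Against endothelium, then, the 8 genes were lower in each KO normoxia library than in each flox normoxia library. These differences carry no test.

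The uptake route of Cd163 was followed further. In KO hypoxia 5 of 10 genes of hemoglobin, heme and iron handling rose and none fell, with a median log2 fold change of 0.27. The hemoglobin-binding protein haptoglobin, Hp, rose by 2.30 ± 0.624, the heme-degrading enzyme Hmox1 by 1.91 ± 0.419, the iron exporter Slc40a1 by 0.87 ± 0.108 and the ferritin light chain Ftl1 by 0.50 ± 0.114. The ferritin heavy chain Fth1 (0.07) and the hemopexin receptor Lrp1 (-0.10) did not pass. In normoxia Slc40a1 alone rose, by 0.97 ± 0.115. In hypoxia 3 of the 10 passed without replicate 1 of KO hypoxia.

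Of 12 genes for macrophage growth factors, maturation and alternative activation, 8 could be tested. Tgfb1 rose in KO brains by 0.92 ± 0.115 in hypoxia and by 0.88 ± 0.124 in normoxia, and Csf1, the growth factor of macrophages, by 0.53 ± 0.0799 in hypoxia. Il34, the other ligand of the CSF1 receptor, did not pass, at 44.3 CPM in KO hypoxia against 43.4 CPM in flox hypoxia. Il10 had 0 counts in all 13 libraries.

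Because several of the 8 genes are used by other cells, markers of those cells were read beside them, and their part in the result was not tested. For Pf4 and F13a1, platelet genes other than these 2 summed to 6.14 to 13.7 CPM in KO hypoxia against 4.63 to 5.44 CPM in flox hypoxia, and to 6.08 to 6.82 CPM in KO normoxia against 5.22 to 6.10 CPM in flox normoxia. Of 10 listed, 6 could be tested and 1 rose in hypoxia, the platelet chemokine Ppbp (adjusted p = 0.0131), with 173 counts in the 4 KO hypoxia libraries against 4 counts in the 3 flox hypoxia libraries. None of the 6 passed in normoxia. Itga2b (0.79 ± 0.252, adjusted p = 0.065) and Gp5 (0.28 ± 0.279) did not pass in hypoxia, and Gp6 and Tubb1 were at 0 in 5 of the 13 libraries each. Replicate 1 of KO hypoxia held the highest platelet sum, as it did for Pf4.

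For Lyve1 and Stab1, the lymphatic endothelial genes other than Lyve1 were mixed. Which cells of the whole tissue carried these transcripts was not tested, so the list does not measure lymphatic endothelium alone. Ccl21a and Mmrn1, of the same list, were at 0.0869 and 0.183 CPM in KO hypoxia against 0.153 and 0.125 CPM in flox hypoxia. Flt4, the receptor VEGFR3, and Pdpn rose in hypoxia by 1.51 ± 0.17 and 1.12 ± 0.0887, whereas Prox1, the factor that sets lymphatic identity, was at -0.26 ± 0.0923 in hypoxia (adjusted p = 0.101) and fell by 0.63 ± 0.0986 on the log2 scale in normoxia (adjusted p = 0.00257). The list summed to 60.3 to 68.1 CPM in KO hypoxia against 47.9 to 55.4 in flox hypoxia, and to 50.0 to 56.1 in KO normoxia against 51.5 to 65.0 in flox normoxia. Prox1 was the most abundant, and without it the sums were 28.4 to 38.3 CPM in KO hypoxia against 13.7 to 14.5 CPM in flox hypoxia, and 21.6 to 23.6 CPM in KO normoxia against 12.6 to 13.3 CPM in flox normoxia. Stab2, the close relative of Stab1, was level at 1.37 CPM in KO hypoxia against 1.33 CPM in flox hypoxia. All 10 blood endothelial genes rose in hypoxia and 9 of 10 in normoxia, with sums of 367 to 551 CPM in KO hypoxia against 208 to 229 CPM in flox hypoxia, and of 285 to 314 CPM in KO normoxia against 153 to 164 CPM in flox normoxia. Pecam1 rose by 1.47 ± 0.141 and Cldn5 by 1.33 ± 0.131 in hypoxia.

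Monocyte and neutrophil genes summed to 30.5 to 52.8 CPM in KO hypoxia against 25.6 to 28.4 CPM in flox hypoxia, and to 27.5 to 32.8 CPM in KO normoxia against 24.2 to 30.8 CPM in flox normoxia. Vcan, a proteoglycan also made by brain cells, did not pass. It made up most of each sum except that of replicate 1 of KO hypoxia. Without Vcan the sums were 7.13 to 26.5 CPM in KO hypoxia against 3.28 to 4.78 CPM in flox hypoxia. In normoxia they were 3.63 to 7.09 CPM in KO libraries against 2.23 to 3.98 CPM in flox libraries. Of 13 listed, 9 could be tested, and in hypoxia 4 rose, among them S100a9 (3.0 ± 0.788) and the monocyte chemokine receptor Ccr2 (1.61 ± 0.455). None passed in normoxia, and Ly6g, the defining neutrophil marker, was at 0 in 11 of 13 libraries. Without replicate 1 of KO hypoxia, 2 of the 9 passed in hypoxia and 2 in normoxia. All 6 erythroid genes rose in hypoxia and 5 of 6 in normoxia, with sums of 3407 to 17390 CPM in KO hypoxia against 449 to 670 CPM in flox hypoxia, and of 974 to 1700 CPM in KO normoxia against 139 to 261 CPM in flox normoxia. Their median log2 fold change in hypoxia was 3.66, and 2.68 without replicate 1 of KO hypoxia, where all 6 still passed.

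Markers of the tissues where border-associated macrophages sit were read in the same way. Of 10 genes of meningeal and perivascular fibroblasts 7 rose in hypoxia, led by Col3a1 (2.36 ± 0.245) and Col1a1 (1.61 ± 0.253), and 1 in normoxia, Col3a1 (1.48 ± 0.243). Cemip (-0.10), Slc6a13 (0.11) and Ranbp3l (0.12) did not pass in hypoxia. Cemip, an abundant gene of this list, was at 26.9 CPM in KO hypoxia against 28.9 CPM in flox hypoxia. The 10 genes summed to 131 to 224 CPM in KO hypoxia against 98.4 to 108 CPM in flox hypoxia. In normoxia the sums were 135 to 164 CPM in KO libraries against 109 to 132 CPM in flox libraries. In flox brains all 10 were below 0 for hypoxia against normoxia without any passing, with a median log2 fold change of -0.31. Choroid plexus genes summed to 314 to 467 CPM in KO hypoxia against 344 to 525 CPM in flox hypoxia, with 0 of 8 called. In normoxia replicate 2 of KO held 12.1 CPM of these genes, while the other 2 KO libraries held 316 and 345 CPM and the flox libraries 326 to 433 CPM. In that library Mrc1 (6.61 CPM), Cd163 (2.69), Lyve1 (1.10), Pf4 (0.613), F13a1 (3.02) and Ms4a7 (0.242) were the lowest of their group. Cbr2 (0.698 CPM) and Stab1 (21.0 CPM) were not. With that library left out, the log2 fold change of Mrc1 in normoxia was 0.958. Whether its tissue content lowered these genes was not tested. Dendritic cell genes gave 2 calls of 5 tested in hypoxia, Itgax (2.31 ± 0.469) and Zbtb46 (0.38 ± 0.0915), and 0 in normoxia. The mast cell genes Cpa3, Cma1 and Tpsb2 had too few counts to be tested. How tissue was cut, and how much of the meninges and choroid plexus each sample kept, is not given in the labels.

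**Figure D4:**
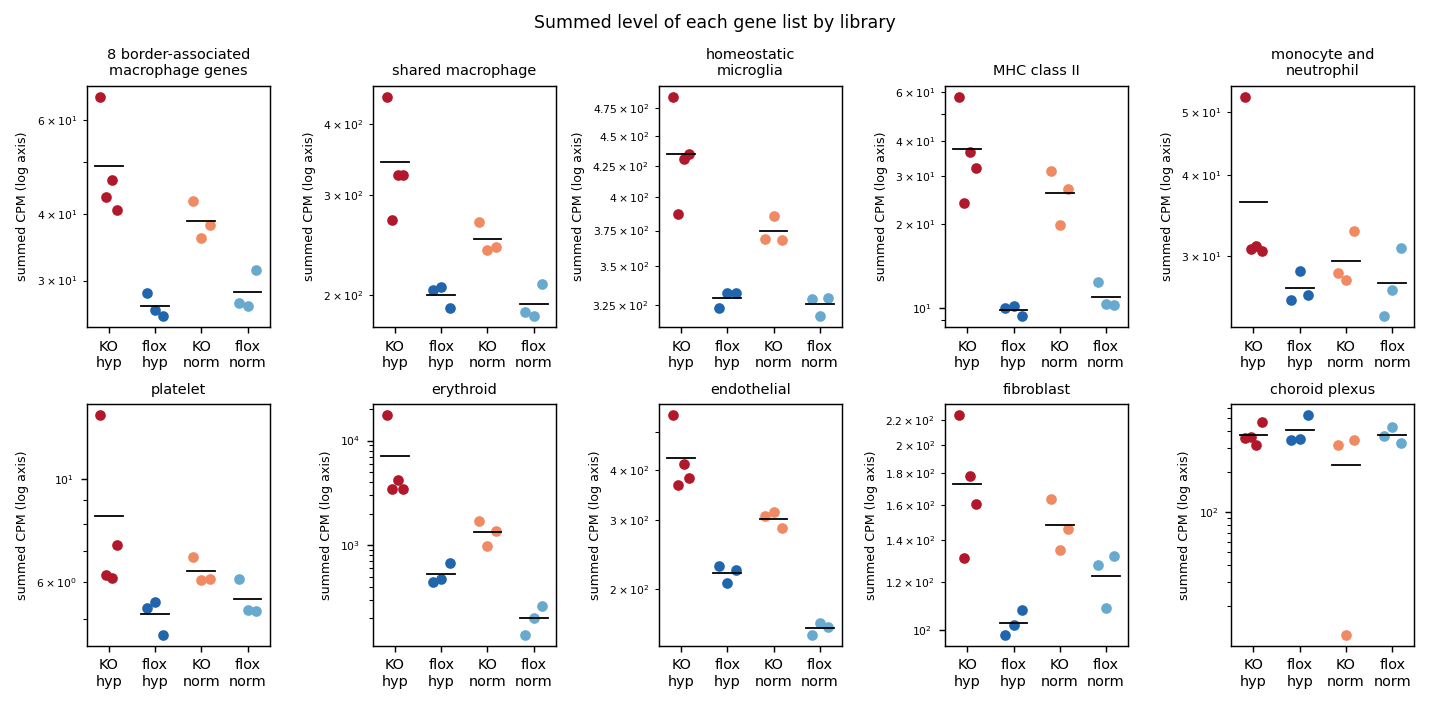
Summed CPM of the 8 genes and of 9 lists of other genes (y axes, logarithmic, each with its own range) in each library, by group from left to right (KO hypoxia, flox hypoxia, KO normoxia, flox normoxia); points are libraries and bars are means. The 8 genes sum to 40.8 to 66.4 CPM in KO hypoxia against 25.7 to 28.4 CPM in flox hypoxia, and to 36.0 to 42.2 CPM in KO normoxia against 26.9 to 31.4 CPM in flox normoxia.

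The 8 genes varied together over the 13 libraries. Across their 28 pairs, Pearson's r of log2 CPM ran from 0.516 to 0.864 with a median of 0.738. After each group's mean was taken away the median was 0.462, and without replicate 1 of KO hypoxia it was 0.152, with pairs from -0.708 to 0.534, so much of what the genes shared within groups rested on that library. All values share library depth and composition and are given as a description.

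Among 13831 named genes of at least 1 CPM, the 8 most like the mean profile of the members were Cp, Thrsp, Itgb5, Col4a5, Arhgap9, Calu, H2-Ab1 and Col1a1, with r of 0.946 to 0.959 over the 13 libraries and 0.763 to 0.912 for deviations from group means. Cp, the ferroxidase ceruloplasmin, averaged 26 CPM in KO hypoxia against 11 CPM in flox hypoxia, and 18.5 CPM in KO normoxia against 12.3 CPM in flox normoxia. Arhgap9 averaged 1.73 CPM in KO hypoxia against 0.592 CPM in flox hypoxia, and 1.03 CPM in KO normoxia against 0.736 CPM in flox normoxia. The other 6 had the same order of KO above flox at both oxygen levels.

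Reads from overlapping genes could enter some of the counts, since the strand setting of the counting is not given in the sources used here. In RefSeq's GRCm38.p6 annotation Stab1 overlaps Nt5dc2 on the opposite strand, Mrc1 holds the microRNA gene Mir511, and Cd163 and F13a1 overlap predicted genes. For Lyve1, Cbr2, Pf4 and Ms4a7 no overlapping gene is annotated there.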

How the data were processed

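RNA sequencing of mouse brain tissue gave 13 libraries in 4 groups, which the sample titles give. Deposited by the authors were raw counts per gene and RPKM values for the same 55416 Ensembl identifiers, of which 52083 had a symbol in the name table. HISAT2, edgeR and GRCm39 are named in the submitters' processing notes, with no versions, and no strand setting is given in the sources used here. RPKM as deposited equal the deposited counts divided by the library total and by 1 length per gene, so they hold no composition factor. The kit, per the labels' protocols, was a stranded mRNA kit, used on RNA of high integrity.

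The test was edgeR 4.0.16 on the counts (R 4.3.3): filterByExpr over the 4 groups (22507 genes), TMM scaling, a quasi-likelihood fit of 1 mean per group to all 13 libraries, and 6 contrasts, each with Benjamini-Hochberg adjustment over all genes tested and a threshold of 0.05. Standard errors came from the F statistic. CPM are TMM-scaled. Profile likeness used log2 CPM with a prior count of 2. Alternatives were RLE scaling, no composition factor, 2 other filters, DESeq2 1.42.0, limma-trend (limma 3.58.1) on log2 of RPKM plus 1 or plus 0.1, a replicate block, a sex term, separate fits for each pair of groups, and omission of each library in turn. A fit of only the 9 libraries in which Y-linked transcripts exceed Xist was added after the data were seen. The fit was tested on simulated data.

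The 8 genes and the 14 other lists were chosen with earlier results of these data known. From each other list, up to 4 called genes with the largest changes and the 2 most abundant uncalled ones were named, and a few further genes (Clec10a, Mgl2, Folr2, Dab2, H2-Eb1 in hypoxia, Gp6, Tubb1, Ly6g and Il10) were named after their values were seen. Values of 1 gene that meets the rule are not reported here. The likeness list holds the 8 closest named genes of at least 1 CPM. The labels name no animals, batches or dates, and p-values measure the spread between libraries, which may be technical. Libraries of 1 group differed by more than sampling noise (chi-square per degree of freedom of at least 4.44). The floor of 3 counts covers counting error only. Promoter windows were copied from RefSeq's GRCm38.p6 table. That is another build than the authors', so no coordinates are given for their counts.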

Additional observations from a re-analysis of the deposited data

Results flagged for a closer look

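In the group of 4 KO hypoxia libraries, replicate 1 lay far above the other 3 for 2 of the 8 genes and for 3 summed lists. Its gap to the next library was more than 0.829 of the group's range. Chance gives that size in about 1 of 20 groups for 1 value chosen beforehand. Many values were scanned here, so that rate does not hold for the flagged ones. Cd163 was at 5.85 CPM in replicate 1 against 2.17 to 2.77 CPM in the other 3, and Pf4 was at 2.50 CPM against 0.470 to 0.811 CPM. The summed monocyte and neutrophil genes reached 52.8 CPM, the summed platelet genes other than Pf4 and F13a1 reached 13.7 CPM, and the summed erythroid genes reached 17390 CPM. The same library had the highest CPM of all 4 for each of the 8 genes. The 5 values come from 1 library and are not independent of one another, and their cause was not tested.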

How the results depend on the processing

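In hypoxia the 7 calls became 4 with a filter of 1 CPM in at least 3 libraries, which leaves 5 of the 8 genes to test, and 4 with limma-trend on log2(RPKM + 1), a scale that shrinks low genes. They became 8 with no filter and with DESeq2 (Lyve1 added), 6 in a fit of only the libraries compared, 5 with limma-trend on log2(RPKM + 0.1), and 7 in the other 5 settings. In normoxia the 1 call became 3 with no filter, 2 with DESeq2, 2 in a fit of only the libraries compared, and 0 with limma-trend at either pseudocount and in the 9 libraries whose Y-linked transcripts exceed Xist. Over both oxygen levels the 4 calls became 8 with no filter and 7 with DESeq2. For hypoxia in KO the 0 calls became 1 (Stab1) with no filter, DESeq2 and the replicate block. RLE scaling gave the same 6 counts of the 8 genes, and so did no composition factor and the sex term except over both levels, with 6 and 5 calls.

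Counts over all genes moved as well. For KO against flox in normoxia 524 became 995 with no filter, 874 with DESeq2, 249 and 333 with limma-trend at pseudocounts 1 and 0.1, and 311 in the 9 libraries. For hypoxia in flox 5 became 158, 67, 2, 2 and 66 in the same order, and 19 in a fit of only the libraries compared. For hypoxia in KO 202 became 833, 755, 46, 42 and 94, and 30 in that fit. For the interaction 0 became 55, 5, 2, 2 and 10, and 1 with the replicate block. Over both levels 2584 became 1661 in the 9 libraries.

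Leaving out 1 library gave 0 to 2 of the 8 genes in normoxia (2 without replicate 1 or 2 of KO hypoxia), 4 to 8 in hypoxia, 0 in flox, 0 to 1 in KO, 0 for the interaction and 3 to 6 over both levels. Over all genes it gave 250 to 727, 1151 to 2490, 0 to 45, 2 to 463, 0 to 1 and 1951 to 3053.

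Replicate numbers are shared between groups, but deviations of same-numbered libraries correlated by only -0.0177 to 0.0881 over 12 pairs. These values over all genes tested show no pairing by number. They cannot exclude a pairing that touches few genes, and the labels state none. With the replicate block, the value of Pf4 in normoxia (0.01 on the log2 scale) was -0.0201, and with the sex term -0.00967. Leaving out 1 library also turned the sign of values near 0: Pf4 in normoxia ran from -0.119 to 0.107, Ms4a7 in normoxia from -0.0471 to 0.667, F13a1 for hypoxia in flox from -0.158 to 0.0189, and for hypoxia in KO Mrc1 from -0.134 to 0.185, Cd163 from -0.202 to 0.365 and Lyve1 from -0.0425 to 0.504. None of these had passed. The causes of these moves, other than the filter, were not tested.

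Depth limits Ms4a7, Pf4 and Cbr2 most, with 25, 44 and 49 counts in all 3 flox hypoxia libraries together.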
